A study of Mus musculus with 5 samples.

Results

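The genes described here are 47 interferon-stimulated genes and nucleic acid sensors, a list of symbols from what is known of the antiviral response, with no threshold on their values. The list was chosen with earlier results of these data known, so counts of its members are not independent of those results. All 47 symbols were found among the 23951 genes of the expression table. RNA-seq had been done on total RNA of pancreatic beta cells of transgenic mice, sorted for green fluorescent protein (GFP) from dissociated islets. In the p16 group, 3 samples from Ins-rtTA/tet-GFP/tet-p16ink4a mice, the beta cells expressed p16INK4a, an inhibitor of the cyclin D kinases, together with GFP. In the GFP group, 2 samples from control Ins-rtTA/tet-GFP mice, they expressed GFP alone. Both groups carried the Ins-rtTA driver, which switches on tet transgenes in insulin-producing cells when tetracycline is given, and both were given tetracycline for 10 days. The series names 3 p16 mice and 2 control mice, as many as the samples, without tying a sample to a mouse. The labels give no strain, age or sex.

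Cells detect foreign or misplaced nucleic acid with sensors such as RIG-I and MDA5 for RNA and cGAS for DNA, which signal through MAVS or STING to make interferon. Secreted type I interferon binds the receptor IFNAR and activates the kinases JAK1 and TYK2. These phosphorylate STAT proteins such as STAT2, which join IRF9 in the complex ISGF3, and ISGF3 binds interferon-stimulated response elements in the promoters of antiviral genes. In beta cells this response is known from viral infection and from the islets of type 1 diabetes, and interferon genes are also switched on in many senescent cells.

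Values are the authors' FPKM (fragments per kilobase of transcript, scaled to sequencing depth), with 1 value per group and gene. No value per sample was given, so neither depth nor an SD can be stated. A gene is said to have risen or fallen where its q-value in the authors' deposited table was below 0.05. Cdkn2a, the gene of p16INK4a, rose from 0.657 to 34.6 FPKM (q of 0.00245 in the authors' deposited table). Of the beta cell markers, Pdx1, Mafa, Nkx6-1, Slc2a2, G6pc2 and Ucn3 lay between 67.6 and 3012 FPKM in both groups, with Slc2a2 lower with p16, at 205.2 against 401.7 FPKM. Ins1, Ins2 and Iapp are listed at 0 because the authors' program skipped loci with too many reads.

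Of the 47 genes, 14 were higher and 1 was lower with p16, 24 were tested without passing, and 8 were too low to have been tested. The table holds 4.32% of all tested genes as higher and 1.1% as lower. The genes that rose were Ifit1, Ifit3, Isg15, Rsad2, Rtp4, Xaf1, Oasl1, Oasl2, Oas1b, Ddx58, Irgm1, Gbp3, Parp14 and Dtx3l, and the gene that fell was Ddx60. The value was higher in p16 for 37 of the 47 genes and lower for 10. Over all 23951 genes it was higher for 9790, lower for 8597 and 0 in both groups for 5564. Among tested genes it was higher for 31 of the 39 members, beside 6418 of all 13264. Of the 8 untested members 6 had the higher value, at levels too low to weigh. The median log2 ratio of FPKM (p16 over GFP) over all 47 was 0.91, with Zbp1, which is listed at 0 with GFP, ranked highest. The like median over all genes above 0 in at least 1 group was 0.05. Over the 39 tested members the median was 0.74, and over all tested genes -0.02. Among the 14 genes that rose, 5 stood below 1 FPKM with GFP (Ifit3, Isg15, Oas1b, Oasl1 and Gbp3). Ifit3 and Gbp3, at 0.155 and 0.215 FPKM with GFP, had 1.81 and 0.749 FPKM with p16 and were tested. Mb21d1, about as low with GFP at 0.276 FPKM, stayed low with p16 at 0.252 FPKM and was not tested. Genes this low with GFP could thus enter the test through their p16 value. Of the 29 tested members at 1 FPKM or more with GFP, 9 rose and 1 fell, beside 3.36% and 1.23% of all tested genes with that much FPKM in GFP. In bulk samples, a change in the number of cells that express a gene cannot be told apart from a change in RNA per cell.

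Under other thresholds and filters the count of members moved as follows. At a q below 0.01, 9 members were higher and 0 lower, beside 2.34% and 0.437% of all tested genes, and at a q below 0.1, 17 were higher and 1 lower, beside 5.68% and 2.05%. Among genes with a mean of at least 1 FPKM, 12 members were higher and 1 lower, beside 3.92% and 1.13%, and at 5 FPKM or more 6 were higher and 0 lower, beside 3.42% and 1.22%.

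**Figure D1:**
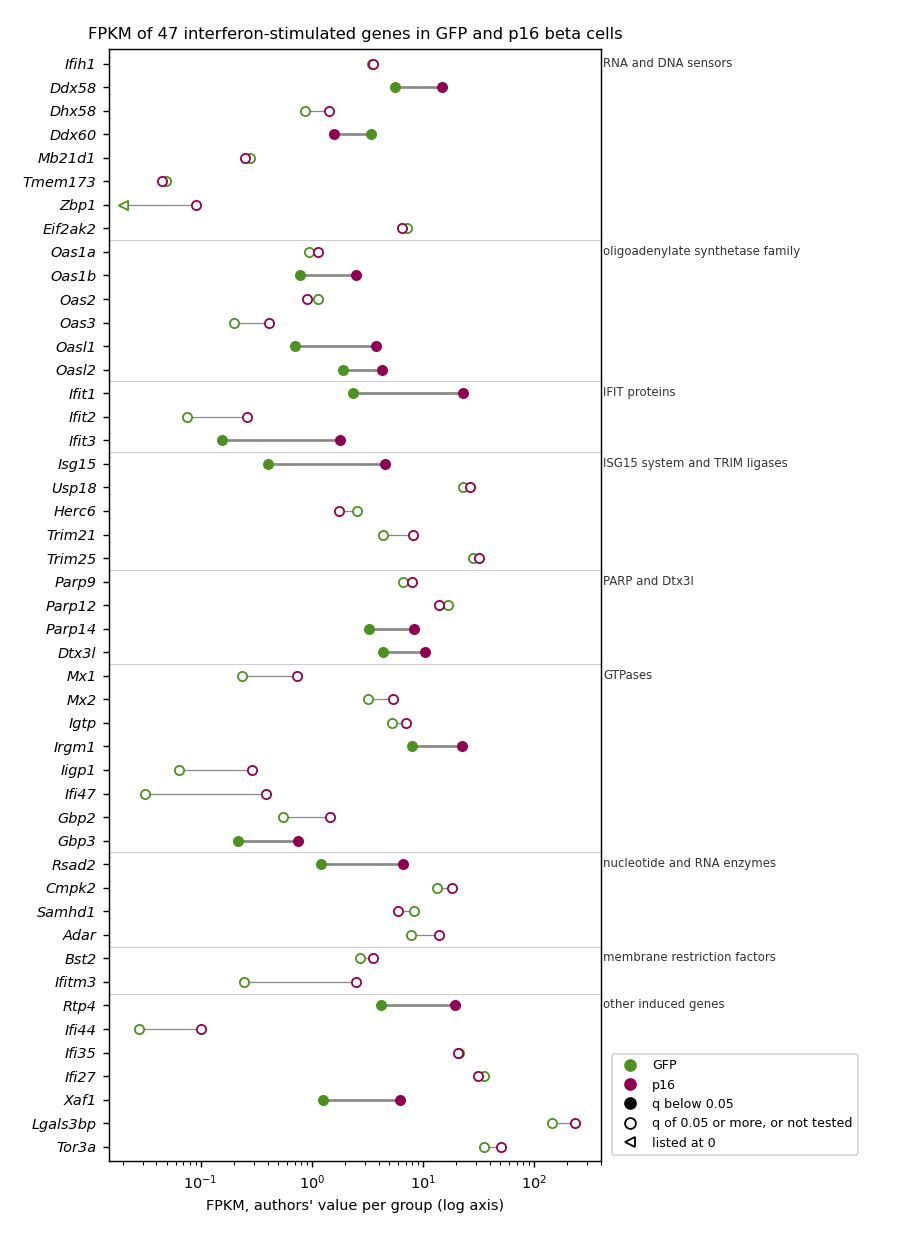
FPKM of the 47 interferon-stimulated genes on a log axis, 1 row per gene and grouped by role, with a green point for the GFP group and a purple point for the p16 group, both the authors' group values without error bars. Filled points mark the 15 genes with a q below 0.05, and a triangle marks a gene listed at 0; the purple point lies to the right of the green in 37 rows.

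Promoters of the listed genes were searched for a sequence that ISGF3 and IRF factors are known to bind. An ISRE-like motif, GAAA and again GAAA with 2 bases of any kind between (TTTC and TTTC on the opposite strand), was sought in the 250 bases before the RefSeq start (GRCm38.p6 build), counting a promoter once however many matches overlapped. RefSeq promoters were matched for 33 of the 47 genes, and 12 of these held the motif, against 3.02% of all tested genes with a promoter. It stood in 6 of the 11 matched genes that rose and in 5 of 17 matched genes that were tested and did not rise. The GAS-like motif TTCNNNGAA is known from binding of STAT factors and is its own reverse complement. It stood in 0 of the 11 matched genes that rose and in 5 of the 17 tested without rising. Of the 33 matched genes 6 held it, beside 7.2% of all tested genes with a promoter. At that share 0 of 11 is no departure from the background. A match is a description of letters, not a site of binding.

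The same letters stand in promoters of genes that rose and of genes that did not. Of the genes with the motif, Oas1a and Gbp2, which did not pass, and Oas3, which was not tested, are not shown. Windows are shown for the 6 genes that rose with the motif, for Ddx60, which fell, and for Bst2 and Igtp, which did not pass. Each runs 5′ to 3′ on the strand of the gene and ends before the start of transcription, and capitals mark the ISRE-like matches.
Ifit1 (chr19:34640765-34640833, plus strand): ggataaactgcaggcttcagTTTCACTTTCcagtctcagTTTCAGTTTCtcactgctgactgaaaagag
Ifit3 (chr19:34583353-34583436, plus strand): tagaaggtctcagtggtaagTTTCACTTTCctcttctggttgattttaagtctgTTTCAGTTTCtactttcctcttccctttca
Isg15 (chr4:156200855-156200916, minus strand): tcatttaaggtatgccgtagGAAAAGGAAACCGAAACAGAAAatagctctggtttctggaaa
Rsad2 (chr12:26456543-26456592, minus strand): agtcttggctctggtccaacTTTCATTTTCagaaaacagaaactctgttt
Irgm1 (chr11:48871421-48871470, minus strand): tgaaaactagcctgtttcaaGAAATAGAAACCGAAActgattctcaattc
Gbp3 (chr3:142559979-142560034, plus strand): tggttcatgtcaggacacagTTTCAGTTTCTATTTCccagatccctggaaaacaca
Ddx60 (chr8:61928014-61928086, plus strand): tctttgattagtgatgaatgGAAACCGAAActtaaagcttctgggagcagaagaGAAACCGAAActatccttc
Bst2 (chr8:71537567-71537622, minus strand): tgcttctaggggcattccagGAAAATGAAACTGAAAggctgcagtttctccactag
Igtp (chr11:58199502-58199551, plus strand): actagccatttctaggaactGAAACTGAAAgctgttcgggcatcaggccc
Isg15 held 3 overlapping matches, the first beginning 78 and the last 66 bases before the start, and Ifit1 and Ifit3 held 2 separate ones each. The 2 matches of Ddx60, which began 53 and 19 bases before its start, are spelled alike.

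The IFIT proteins, which bind viral RNA that lacks the caps of host messenger RNA, held 2 of the 3 largest rises in fold, the other being Isg15. Ifit1 was at 2.35 FPKM with GFP and 23.2 with p16, a 9.88-fold rise (q of 0.00245 in the authors' deposited table). Ifit3 stood at 0.155 and 1.81 FPKM, an 11.7-fold rise with the same q. The promoters printed above for both genes carry 2 ISRE-like matches each. Ifit2 was not tested, at 0.0751 FPKM with GFP against 0.261 with p16, and its promoter held no match. All 3 genes lie within 99.3 kb of chromosome 19 (34625184 to 34724499 in the mm9 build), and Ifit1 was by far the most abundant of them in both groups.

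Ubiquitin-like ISG15, which is attached to newly made proteins, belonged to the genes that rose most. Isg15 was at 0.401 FPKM with GFP and 4.59 with p16, 11.4-fold higher (q of 0.0204 in the authors' deposited table). The enzymes around it did not follow beyond the threshold. Usp18, the protease that removes ISG15 and also restrains the interferon receptor, stood at 23.0 and 26.4 FPKM (q of 0.795 in the authors' deposited table). Herc6, the ligase that attaches ISG15 in mice, stood at 2.57 and 1.76 FPKM. Uba7 and Ube2l6, which activate and carry ISG15, stood at 3.17 and 10.2 FPKM with GFP against 2.58 and 10.7 with p16, and neither had an unadjusted p below 0.05. The ubiquitin ligase Trim25, a partner of RIG-I, stood at 28.2 and 31.9 FPKM, and the antibody receptor Trim21 at 4.38 and 8.23 FPKM (q of 0.812 and 0.0605 in the authors' deposited table).

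Among the RNA and DNA sensors, RIG-I rose and its relatives did not pass; a difference between them was not tested. Ddx58, which encodes RIG-I, a sensor of RNA with uncapped ends, was at 5.63 FPKM with GFP and 15.04 with p16, 2.67-fold higher (q of 0.00245 in the authors' deposited table). Ifih1, the gene of MDA5, which senses long double-stranded RNA, stood at 3.51 and 3.56 FPKM (q of 0.987 in the authors' deposited table), and its ratio changed sign with quantile normalization. Dhx58, the gene of the third RIG-I-like receptor LGP2, stood at 0.871 and 1.43 FPKM, and Eif2ak2, the gene of the RNA-activated kinase PKR, at 7.16 and 6.57 FPKM. Ddx60, a helicase reported to assist RIG-I-like receptors, fell from 3.45 to 1.58 FPKM (q of 0.013 in the authors' deposited table). After removal of a trend with GC content and length the signed normal quantile of its p-value went from -3.54 to -2.94, just short of the size of 2.99998 that a call needed. The DNA-sensing axis stood near 0 in both groups: Mb21d1, which encodes cGAS, stood at 0.276 and 0.252 FPKM, Tmem173, which encodes STING, at 0.0489 and 0.0451 FPKM, and the nucleic acid sensor gene Zbp1 was listed at 0 and 0.0915 FPKM. None of these 3 was tested.

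Interferon transcripts themselves were at or near 0. Of 21 interferon genes in the table, 18 were listed at 0 in both groups, among them every listed interferon alpha gene and Ifng. Ifnb1, the interferon beta gene, was at 0.103 FPKM with GFP and 0.0842 with p16. Ifnk and Ifnl2 stood at 0.0510 and 0.0390 FPKM with GFP and were listed at 0 with p16. None of the 21 was tested, and at an unknown depth, values this low do not show absence.

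Most receptors and signal transducers were expressed in both groups, and several components rose. Ifnar1 and Ifnar2, the 2 chains of the type I receptor, stood at 9.06 and 18.0 FPKM with GFP against 10.97 and 23.4 with p16, without passing. Ifngr2, the signalling chain of the interferon gamma receptor, rose from 11.0 to 26.4 FPKM (q of 0.00245 in the authors' deposited table). Ifnlr1, the receptor chain for interferon lambda, rose from 0.321 to 1.16 FPKM (q of 0.00899 in the authors' deposited table). Ifnlr1 was low with GFP and may have entered the test through its p16 value. It dropped out among genes with a mean of at least 1 FPKM. Within ISGF3, Irf9 rose from 6.49 to 16.8 FPKM and Stat2 from 4.18 to 7.87 FPKM (q of 0.00245 and 0.035 in the authors' deposited table). Irf7, the factor that amplifies interferon alpha production, rose from 3.31 to 8.08 FPKM (q of 0.00597 in the authors' deposited table).

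Of 6 feedback inhibitors tested, 1 rose, 1 fell and 4 did not pass (Ptpn2, Ptpn11, Pias1 and Pias4). Socs1, which blocks JAK kinases at interferon receptors, rose from 0.989 to 4.03 FPKM, and Socs3, which acts mainly on cytokine receptors that signal through gp130, fell from 72.2 to 28.4 FPKM (q of 0.00597 and 0.00245 in the authors' deposited table). The upstream lists hold 63 genes, and of the 36 tested 6 were higher and 1 lower, beside 4.32% and 1.1% of all tested genes. In the list of other nucleic acid receptors and nucleases, which holds Tlr3 and Trex1, none of the 6 tested genes passed, which is no departure from those shares. Of these 6, 2 were higher and 1 lower at an unadjusted p below 0.05 in the authors' Cuffdiff test.

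**Figure D2:**
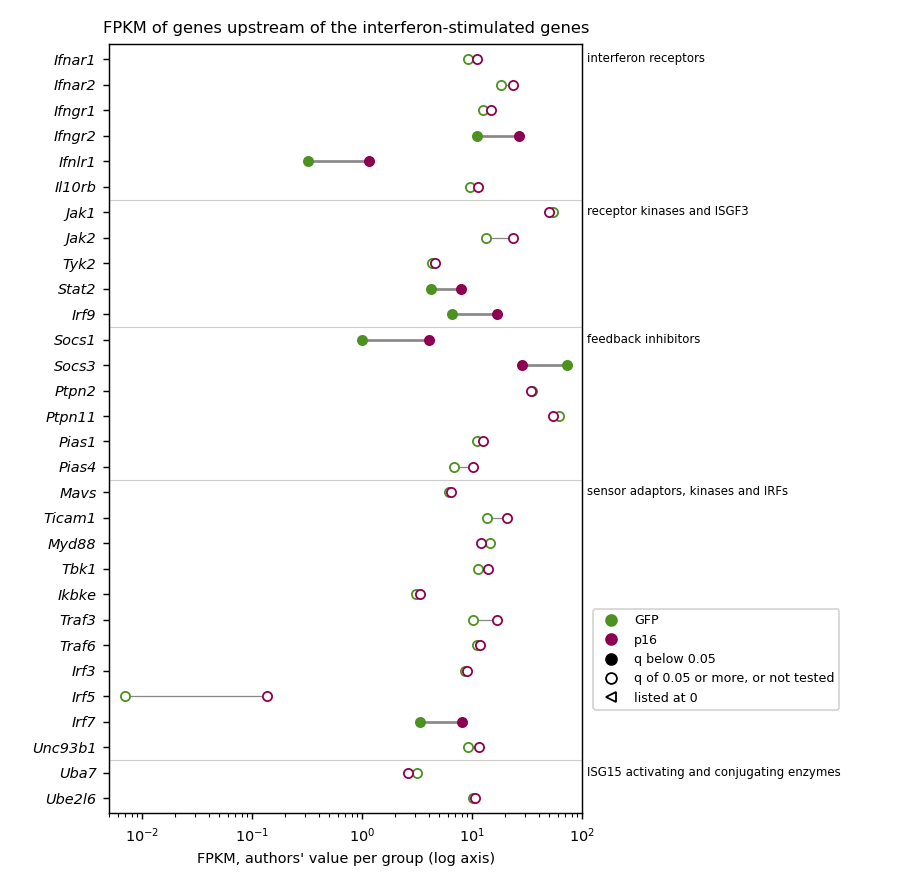
FPKM on a log axis of interferon receptors, receptor kinases and ISGF3 subunits, feedback inhibitors, sensor adaptors and ISG15 enzymes, 1 row per gene shown, green for the GFP group and purple for the p16 group, the authors' group values without error bars. Filled points mark a q below 0.05: Ifngr2, Ifnlr1, Stat2, Irf9, Socs1 and Irf7 lie higher with p16 and Socs3 lower.

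The oligoadenylate synthetases make a small messenger molecule when they bind double-stranded RNA. Oasl1, an OAS-like protein without that activity, was at 0.714 FPKM with GFP and 3.78 with p16, 5.30-fold higher (q of 0.00245 in the authors' deposited table). Oasl2 rose from 1.92 to 4.31 FPKM and Oas1b from 0.780 to 2.50 FPKM (q of 0.0363 and 0.0152 in the authors' deposited table). The other 3 did not pass or were not tested. Oas1a stood at 0.944 and 1.15 FPKM, Oas2 at 1.13 and 0.900 FPKM, and Oas3, which was not tested, at 0.201 and 0.413 FPKM. Oas1 genes are close copies of each other, so the split of reads among them is uncertain.

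Enzymes that act on nucleotides and RNA differed in what they showed. Rsad2 encodes viperin, which makes a chain-terminating nucleotide, and it was at 1.22 FPKM with GFP and 6.67 with p16, 5.48-fold higher (q of 0.00245 in the authors' deposited table). Cmpk2, a nucleotide kinase whose gene lies beside Rsad2, was already at 13.4 FPKM with GFP and at 18.3 with p16 (q of 0.398 in the authors' deposited table). Adar, which edits adenosine to inosine in double-stranded RNA, stood at 7.86 and 14.1 FPKM (q of 0.269 in the authors' deposited table), in a locus that overlaps Chrnb2. Samhd1, which breaks down deoxynucleotides, stood at 8.39 and 5.96 FPKM.

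In the PARP group, Parp14, an ADP-ribosyltransferase, rose from 3.28 to 8.36 FPKM and Dtx3l, a ubiquitin ligase, from 4.43 to 10.4 FPKM (q of 0.00245 and 0.0336 in the authors' deposited table). Parp9, the partner of Dtx3l, stood at 6.70 and 8.07 FPKM (q of 0.853 in the authors' deposited table). The authors list Parp9 and Dtx3l under 1 locus with the same coordinates, and how reads were divided between them is not known. Parp12, an ADP-ribosyltransferase encoded on another chromosome, stood at 16.7 and 14.1 FPKM.

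All 8 interferon-induced GTPases had the higher value in p16, and 2 of them passed. Irgm1, which guards against intracellular bacteria, was the most abundant and rose from 7.93 to 22.4 FPKM, 2.82-fold (q of 0.00245 in the authors' deposited table). Gbp3, a guanylate-binding protein, rose from 0.215 to 0.749 FPKM (q of 0.0472 in the authors' deposited table). Gbp2 stood at 0.550 and 1.46 FPKM and Mx1, the myxovirus resistance gene, at 0.237 and 0.743 FPKM (q of 0.0564 and 0.0796 in the authors' deposited table). Igtp stood at 5.33 and 7.06 FPKM and Mx2 at 3.23 and 5.40 FPKM. Iigp1, at 0.0644 and 0.290 FPKM, and Ifi47, at 0.0317 and 0.391 FPKM in a locus that overlaps 4 other genes, were not tested.

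Of the remaining genes, Rtp4, a chaperone of membrane receptors that is induced by interferon, was at 4.23 FPKM with GFP and 19.4 with p16, 4.60-fold higher (q of 0.00245 in the authors' deposited table). Xaf1, which binds the apoptosis inhibitor XIAP, rose 4.89-fold, from 1.27 to 6.19 FPKM, with the same q. The membrane factors Bst2, or tetherin, and Ifitm3, which blocks fusion of viruses in endosomes, stood at 2.72 and 0.245 FPKM with GFP against 3.57 and 2.52 with p16. Ifitm3 was thus 10.3-fold higher without passing (q of 0.124 in the authors' deposited table). Lgals3bp, a secreted glycoprotein and the most abundant gene of the list, stood at 145.9 and 233.8 FPKM (q of 0.13 in the authors' deposited table). Tor3a stood at 35.9 and 50.8 FPKM, Ifi27, in a locus shared with Ifi27l2a, at 36.0 and 31.3 FPKM, Ifi35 at 21.3 and 20.8 FPKM, and Ifi44, not tested, at 0.0279 and 0.0997 FPKM.

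By level of expression, none of the 6 members with a mean of 20 FPKM or more rose, where 2.76% of all tested genes did, so that 0 of 6 is no departure from the background: Lgals3bp, Tor3a, Ifi27, Trim25, Usp18 and Ifi35. At an unadjusted p below 0.05 in the authors' Cuffdiff test 1 of the 6 was higher, Lgals3bp (p = 0.0119). Between 5 and 20 FPKM 6 of 14 tested members rose, beside 4.12% of all tested genes. Between 1 and 5 FPKM 6 of 16 did, beside 5.4%, and below 1 FPKM 2 of 3, beside 6.85%. These 3, Ifit3, Gbp3 and Mx1, stood at 0.155, 0.215 and 0.237 FPKM with GFP and higher with p16. Members low in both groups, such as Mb21d1 and Ifit2, were not tested, so 2 of 3 may reflect which genes could be tested.

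**Figure D3:**
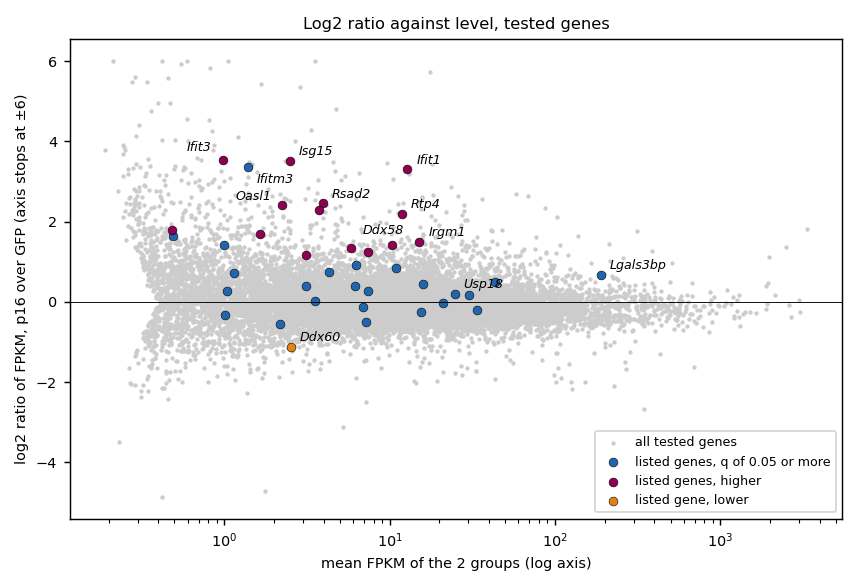
Log2 ratio of FPKM, p16 over GFP, against mean FPKM on a log axis for tested genes (grey; 90 genes listed at 0 in 1 group are not drawn), with listed genes that rose in purple, the gene that fell in orange and listed genes that did not pass in blue. The purple points lie at a mean below 20 FPKM, and the 6 listed genes above it are blue.

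Across the table calls followed the GC content of transcripts, as genes called higher had a median of 53.3% and genes called lower 43.6%, against 49.7% for all tested genes. The listed genes that rose had a median of 47.02%, below that of all tested genes. In the range of 43.9 to 47.8% GC, 8 of 13 tested members rose, where 2.78% of all tested genes did. With the trend of GC content and length removed, all 14 genes that rose stayed past the threshold, and Trim21, Mx1 and Gbp2 joined them, beside 2.99% of the tested genes with a GC content. The removal tends to raise the signed quantile of genes with a low GC content, as for Gbp2 from 2.94 to 3.55. It lowered that of Oasl1, with a higher GC content, from 4.06 to 3.46. That most of these genes stayed past the threshold was thus likely in advance. On that measure 0 members were lower, beside 0.693%.

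**Figure D4:**
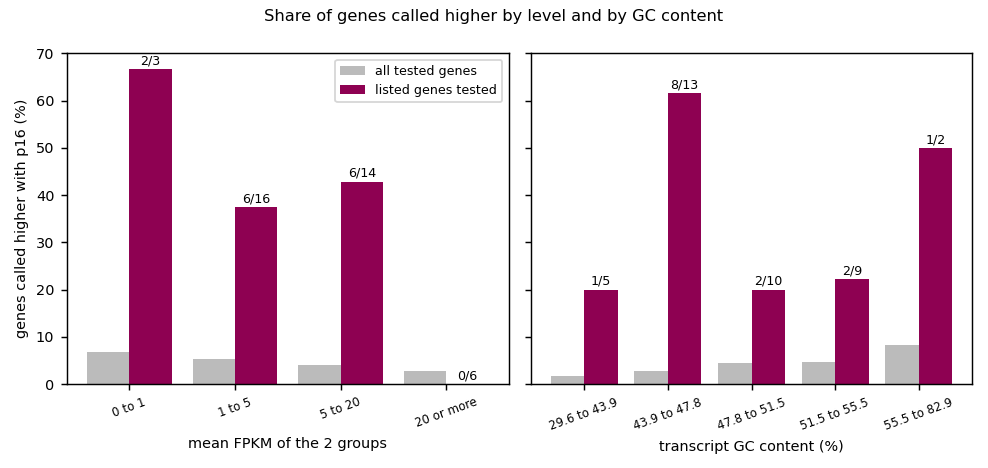
Share of tested genes called higher with p16, in bins of mean FPKM (left) and of transcript GC content (right), for all tested genes in grey and for the listed genes in purple, with the number called of the number tested above each purple bar. Purple bars rest on 2 to 16 genes each and reach 8 of 13 at 43.9 to 47.8% GC, where the grey bar is low at 2.78%.

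Among neighbouring genes of the list some rose and others did not pass, though all but Oas2 had the higher value in p16. In the mm9 build 18 of the 47 genes fall into 7 groups of neighbours less than 150000 bases apart. Of the 7 groups, 6 hold at least 1 gene that rose. Over the whole list 14 of 39 tested members rose, beside 4.32% of all tested genes. Groups drawn from such a list can thus often hold a rise, and a tie to position was not tested. Rsad2 (chromosome 12, 27127608 to 27141317) rose and the adjacent Cmpk2 (27154080 to 27164702) did not pass. Oas1b (chromosome 5, 121262644 to 121274169) rose between Oas3 and Oas1a, which were untested and below the threshold. Oasl1 and Oasl2 (chromosome 5, 115346943 to 115387920) both rose. The receptor genes Ifnar2, Il10rb, Ifnar1 and Ifngr2 lie within 191.2 kb of chromosome 16 (91373028 to 91564252), and of these Ifngr2 rose. Differences between neighbours were not tested.

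Immune cells also express these genes, and their markers were read in the same sorted cells. Of 19 leukocyte and macrophage genes, 6 were tested and 1 of these rose, Cd68, from 0.229 to 1.95 FPKM (q of 0.0498 in the authors' deposited table, and 0.052 among genes with a mean of at least 1 FPKM). Cd68 was low with GFP and may have entered the test through its p16 value. Of the 19, 13 stood below 0.5 FPKM in both groups. Ptprc, which all leukocytes express, stood at 0.00329 and 0.0269 FPKM, and Cd3e was listed at 0 in both groups. The list summed to 44.5 FPKM with GFP and 51.1 with p16. Most of this came from C1qa at 25.9 and 35.1 FPKM, followed by Cd79a at 7.41 and 5.50 FPKM and Fcer1g at 6.39 and 5.53 FPKM. Cd74 stood at 1.90 and 1.58 FPKM and H2-Aa at 1.58 and 0.702 FPKM, while the complex partners of C1qa, C1qb and C1qc, were at 0.174 and 0.105 FPKM with GFP against 0.0109 and 0.0549 with p16. Endothelial genes summed to 3.11 and 3.65 FPKM, with the 1 tested gene, Esam, at 2.49 and 3.04 FPKM, and Pecam1 stood at 0.209 and 0.262 FPKM.

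The 9 stellate and fibroblast genes summed to 0.652 FPKM with GFP and 4.97 with p16. Both tested genes of that list rose, Col1a2 from 0.0837 to 1.60 FPKM and Dcn from 0.133 to 2.29 FPKM (q of 0.00245 and 0.00752 in the authors' deposited table). Both were near 0 with GFP and may have entered the test through their p16 values, and the other 7 were not tested. Of the 9 genes, 7 had the higher value in p16 and 2, Acta2 and Lum, the lower. Among the 7 markers of other endocrine cells, of which 3 rose, Sst went from 1244 to 2678 FPKM and Ppy from 344.8 to 672 FPKM (q of 0.00597 and 0.0343 in the authors' deposited table), while Gcg stood at 1642 and 2263 FPKM, and the list summed to 3239 and 5628 FPKM. The duct and acinar list summed to 151.5 and 166.6 FPKM, mostly Krt7 at 134.0 and 151.5 FPKM, with Sox9 higher and Krt19 lower. Sox9 stood at 0.122 FPKM with GFP and 0.492 with p16 and may have entered the test through its p16 value. The part of these cells in the interferon genes was not tested.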

How the data were processed

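Total RNA of 3 p16 samples and 2 GFP samples was sequenced, per the labels. TopHat2, Cuffnorm, Cuffdiff and the mm9 build are named in the submitters' processing notes, with versions, annotation, scaling and strand not given in the sources used here. From these the authors deposited 1 table with an FPKM value per group and a p-value and q-value per gene, so samples could not be compared and no model was refitted. Their q-values match a Benjamini-Hochberg adjustment of the p-values of 13264 tested genes (largest gap 5.23e-07). The lowest p-value, 5e-05, is a floor that 271 genes reach, 9 of them listed here.

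Ratios were computed from FPKM without a pseudocount. Starts were raised by 1, since 272 of 887 microRNA genes then had their RefSeq hairpin length and 1 did before. The longest GENCODE M21 transcript gave GC content and length for 99.0% of tested genes, and no coordinates. Natural splines with 4 degrees of freedom each were regressed out of signed normal quantiles of the p-values (23.2% of their variance), a step tested on simulated data. Genes past the quantile of the authors' weakest call were counted. Promoters came from RefSeq, GRCm38.p6.

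The members were named by symbol with no threshold on values, but they, the lists and the tests were chosen with earlier results of these data known, so the members' counts are not independent of those results. By rule, genes with a q below 0.05 and the 2 most abundant others of each role are given with values; the rest were added so that every member is accounted for. The alternatives were thresholds of q, filters on FPKM, pseudocounts, scaling, the GC and length trend, and overlapping loci. Python 3.11.15, numpy 2.4.6, pandas 2.3.3, scipy 1.17.1, patsy 1.0.2 and matplotlib 3.10.9 were used. A few genes of the upstream and marker lists are counted but not reported here by name.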

Additional observations from a re-analysis of the deposited data

How the results depend on the processing

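Of the 47 genes, 14 rose; the count was 9 at a q below 0.01, 17 at a q below 0.1, 12 among genes with a mean of at least 1 FPKM and 6 at 5 FPKM or more, where only 6 of the genes that rose remain. It was 9 among genes with at least 1 FPKM in GFP, an alternative chosen after the data were seen, 17 with the GC and length trend removed and 13 without overlapping loci. The count of genes that fell, Ddx60 in the Cuffdiff test with also 1 at an unadjusted p below 0.05, was 0 at a q below 0.01, 0 at 5 FPKM or more and 0 with the trend removed. The median log2 ratio of tested members, 0.74, was 0.72 with a pseudocount of 0.1, 0.53 with 1 and 0.34 with 5. It was 0.76 after centring, 0.53 with quantile normalization on log2(FPKM + 1), 0.70 and 0.48 at means of at least 1 and 5 FPKM, 0.88 over members above 0 in both groups, 0.91 over all 47 (chosen after the data were seen) and 0.73 without overlapping loci. Of 39 tested members 1 changed sign under any scaling, Ifih1 with quantile normalization. Upstream, the 6 higher genes became 7 and 5 at a q below 0.1 and at a mean of at least 1 FPKM, and 1 was lower in each. Over all tested genes at these settings, 5.68% and 3.92% were higher and 2.05% and 1.13% lower. No paired analysis was possible because the table holds no values per sample, and for the same reason no sample could be left out. Depth is unknown, which limits genes below about 1 FPKM most.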

Other observations

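Relatives of the listed genes, gathered by symbol after their values were seen, moved unevenly. In the guanylate-binding family the 9 genes not listed held 3 that rose: Gbp7 from 1.47 to 5.68 FPKM, Gbp6 from 0.323 to 1.57 FPKM and Gbp9 from 0.125 to 0.715 FPKM (q of 0.00245, 0.00245 and 0.0142 in the authors' deposited table). With Gbp3 that made 4 of 8 tested members of the family higher, beside 4.32% of all tested genes. Gbp9, Gbp6 and Gbp3 stood at 0.125, 0.323 and 0.215 FPKM with GFP and may have entered the test through their p16 values. Gbp10 and Gbp11, listed at 0 with GFP and at 0.0261 and 0.170 FPKM with p16, were not tested. Of the 11 genes of the family, 10 had the higher value in p16, with Gbp2b, not tested, listed at 0 in both groups. These genes share long stretches of sequence, so the split of reads among them is uncertain.

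Other families held few or no calls beyond the listed genes. Over all tested genes 4.32% were higher and 1.1% lower, so counts this small are no departure from the background. Of the 6 Oas genes not listed 2 were tested and neither passed, and Oas1c was at 1.69 FPKM with GFP and 0.668 with p16, the opposite order to Oas1b (q of 0.0554 in the authors' deposited table; 1 of the 2 was lower and 0 higher at an unadjusted p below 0.05 in the Cuffdiff test). Ifitm2, the most abundant Ifitm gene, stood at 27.9 and 25.1 FPKM beside the low Ifitm3. Of 9 further Parp genes, all tested, none passed, with 1 higher and 1 lower at an unadjusted p below 0.05 in the Cuffdiff test. Of 64 further Trim genes 36 were tested, of which Trim67 rose from 0.740 to 1.68 FPKM and Trim59 fell from 2.71 to 0.791 FPKM (q of 0.0204 and 0.00245 in the authors' deposited table). None of 10 genes of the Ifi200 cluster, which encodes DNA-binding PYHIN proteins, was tested, and the one with the highest mean, Aim2, stood at 0.308 and 0.396 FPKM.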
